A study of Mus musculus with 4 samples.

Results

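Granzymes and the other genes of the cytotoxic granule were followed as a set of 9 mouse genes, taken by name from the 32285 features of 4 single-cell RNA-seq libraries. The members were the granzymes Gzma, Gzmb and Gzmk, the pore former Prf1, the granule membrane protein gene Nkg7, the protease gene Ctsw, the cystatin gene Cst7 and the serpin genes Serpinb9 and Serpinb6b. All 9 were found in the 4 matrices, and each was counted at least 15 times in every library. The members were listed by name and not by a cut on measured values, but earlier results of these data were known when they were chosen.

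The cells were sorted as CD4+ Foxp3GFP+ regulatory T (Treg) cells from C57BL/6 mice. Lymphocytes of each organ were first enriched with CD4 (L3T4) microbeads, and GFP+ cells were then sorted. The 4 groups were liver cells of 7-week-old mice, liver cells of 12-day-old (neonatal) mice, spleen cells of 7-week-old mice and spleen cells of 12-day-old mice, with 1 library each. The 12-day-old animals carried Foxp3GFP-Cre and Rosa26loxP-Stop-loxP-YFP alleles, so GFP was tied to the Foxp3 locus; the genotype of the 7-week-old mice beyond the Foxp3GFP tag is not given, and the stage label of those mice reads "aged". The number of mice behind a library is not stated. With 1 library per group there was no replicate check on any difference, and no test was run. Intervals in brackets are exact 95% intervals (Clopper-Pearson for shares of cells, Poisson for levels, and for ratios the binomial given the summed count) and cover counting error only.

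Cytotoxic lymphocytes carry granules that fuse with the plasma membrane at the contact with a target cell. Perforin, the product of Prf1, opens pores through which granzymes, serine proteases, enter the target and cleave proteins that lead to its death. Serpins of the cytosol, such as the product of Serpinb9, inhibit granzyme B that leaks from the granules. Regulatory T cells hold back other immune cells by several routes, and granzyme B is one that activated Treg cells of mouse and human are known to use.

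The promoter stretches of Gzmb, Prf1 and Nkg7 are shown because these are the 3 members past 2-fold in neonatal liver over neonatal spleen; Prf1 and Nkg7 were picked for this after their values were seen. Each stretch ends before the gene's annotated start, reads 5′ to 3′ on the gene's own strand, comes from the RefSeq promoter table (GRCm38.p6) and has motif letters in capitals. Gzmb lies at chr14:56258838-56262260 on the minus strand, and its stretch covers chr14:56262335-56262584. Prf1 lies at chr10:61297833-61304680 on the plus strand, and its stretch covers chr10:61297586-61297832. Nkg7 lies at chr7:43437073-43438249 on the plus strand, and its stretch covers chr7:43436888-43437072.
Gzmb: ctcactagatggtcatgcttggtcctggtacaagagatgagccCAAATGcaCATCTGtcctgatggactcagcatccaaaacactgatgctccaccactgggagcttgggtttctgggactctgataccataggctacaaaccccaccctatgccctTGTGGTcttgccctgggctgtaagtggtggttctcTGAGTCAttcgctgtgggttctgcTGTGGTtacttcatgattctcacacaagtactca
Prf1: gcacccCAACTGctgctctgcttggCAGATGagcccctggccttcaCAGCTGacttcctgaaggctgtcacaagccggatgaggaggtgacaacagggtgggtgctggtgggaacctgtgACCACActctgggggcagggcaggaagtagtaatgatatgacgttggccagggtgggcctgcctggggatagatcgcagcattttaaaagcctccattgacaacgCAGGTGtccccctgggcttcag
Nkg7: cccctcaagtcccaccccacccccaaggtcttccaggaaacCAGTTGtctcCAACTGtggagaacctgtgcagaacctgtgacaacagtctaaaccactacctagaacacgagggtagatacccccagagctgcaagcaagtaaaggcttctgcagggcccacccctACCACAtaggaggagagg

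The letters searched, on both strands, were TGANTCA (the AP-1 motif), TGTGGT (the Runx motif), GGTGTG (a T-box core) and CANNTG (the E-box). The Gzmb stretch held 1 AP-1 motif, 2 Runx motifs and 2 E-boxes. The Prf1 stretch held 1 Runx motif and 4 E-boxes, and the Nkg7 stretch 1 Runx motif and 2 E-boxes. Among the 250 bases before each of 32851 RefSeq start sites, 6.75% held the AP-1 motif, 14% the Runx motif, 16.3% the T-box core and 66.2% an E-box. Of the 8 members in the promoter table, 1 held the AP-1 motif (Gzmb), 5 the Runx motif, 4 the T-box core (Gzmk, Nkg7, Serpinb9 and Serpinb6b) and 7 an E-box in that window. The T-box core of Nkg7 lies after the GENCODE start of the gene and so outside the stretch shown. These matches are letters in a window and say nothing of binding in these cells.

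The remaining members lie on 3 chromosomes besides those named, in the GENCODE annotation of GRCm38. Gzma (chr13:113093825-113100981) and Gzmk (chr13:113171608-113225908) are both on the minus strand of the same chromosome. Serpinb6b (chr13:32965209-32979067) and Serpinb9 (chr13:33003250-33017957) are on its plus strand. Ctsw is at chr19:5465043-5468507 on the minus strand and Cst7 at chr2:150570415-150578944 on the plus strand. Gzmk overlaps Esm1 and Ctsw overlaps Fibp, each on the opposite strand. All 9 members are annotated as protein-coding.

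After cells with fewer than 500 genes or more than 10% mitochondrial UMIs (unique molecular identifiers, 1 per captured RNA molecule) were left out, 2424 cells of 7-week liver, 5668 of neonatal liver, 6024 of 7-week spleen and 6178 of neonatal spleen stayed. Median depth was 2663, 4444, 2936 and 4540 UMIs per cell in the same order, so the neonatal cells were deeper. A Foxp3 UMI was seen in 60.1% to 73.3% of the cells (Foxp3-positive), and the 6 Treg marker genes summed to between 2303 and 2909 counts per 1000000 UMIs (CPM) in the 4 libraries. Cells without a Foxp3 UMI (Foxp3-negative) still had 1628 to 2256 CPM of these markers, so the lack of a Foxp3 UMI does not by itself mark a cell as another type. Of the barcode sequences kept, 18 to 54 were shared by any pair of libraries. Levels below are CPM of the counts summed over a library's kept cells. They are not scaled for gene length and are set side by side only within a gene. A difference in such a sum can be a difference in the share of cells that carry the RNA or in the RNA per cell, and the shares are therefore given with the levels.

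Gzmb, which codes for the granzyme that cleaves after aspartate and activates caspases, was highest in neonatal liver. It stood at 68.9 CPM [63.1 to 75.2] in 7-week liver, 743 CPM [733 to 752] in neonatal liver, 21.7 CPM [19.7 to 23.9] in 7-week spleen and 157 CPM [153 to 161] in neonatal spleen. From high to low the levels ran neonatal liver, then neonatal spleen, then 7-week liver, with 7-week spleen last, and none of the 4 intervals overlapped. A Gzmb UMI was seen in 6.85% of the cells of 7-week liver, 40.1% of neonatal liver, 2.14% of 7-week spleen and 10.2% of neonatal spleen. The order was the same after cells were thinned to 1000 UMIs: 4.1% of cells in 7-week liver, 26.4% in neonatal liver, 1.04% in 7-week spleen and 6.13% in neonatal spleen. All thinned shares leave out the cells with fewer than 1000 UMIs. These were 154 cells in 7-week liver, 515 in neonatal liver, 90 in 7-week spleen and 325 in neonatal spleen. Cells with a Gzmb UMI also held more of them in neonatal liver, a median of 5 UMIs, against 2 in 7-week liver, 2 in 7-week spleen and 3 in neonatal spleen.

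RNA that is free in the suspension gives UMIs in cells that do not make a gene, so cells of other types were looked at. B-like and macrophage-like cells had UMIs of 2 or more marker genes of that type and none of Cd3e, Cd3d and Cd3g. The last condition leaves out barcodes that took up free T cell RNA, so these cells can understate it. Neonatal liver held 13 B-like cells with a median of 2866 UMIs; 1 of them had a Gzmb UMI (7.69% [0.195 to 36]), against 40.2% of the 5655 other cells, whose median depth was 4448 UMIs. Gzmb was at 22.2 CPM in those B-like cells and at 744 CPM in the others. None of the 13 had a UMI of Nkg7, Ctsw or Cst7. The 7 macrophage-like and 2 B-like cells of neonatal spleen and the 2 macrophage-like cells of 7-week spleen had none of the 4 RNAs, and 7-week liver held no such cell. The free RNA was thus not measured by these cells, least of all in the 7-week libraries, which hardly held any. Barcodes of neonatal liver left out for fewer than 500 genes (2344, with a median of 572.5 UMIs) had Gzmb at 737 CPM, close to the kept cells.

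**Figure D1:**
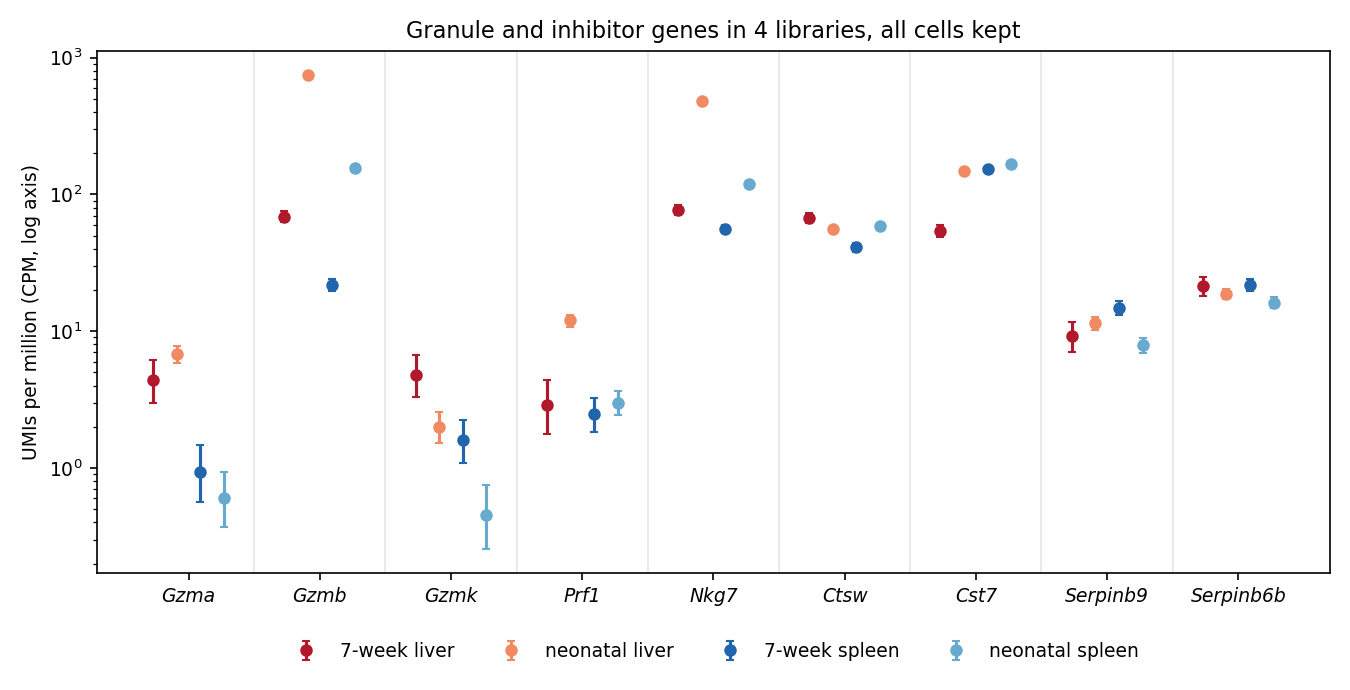
Level of each member in the 4 libraries, in CPM on a log axis, each point 1 library with its exact 95% Poisson interval. Gzmb and Nkg7 stand highest in neonatal liver at 743 and 484 CPM, Cst7 lies between 149 and 168 CPM in 3 libraries with 7-week liver apart at 54.3 CPM, and the serpin genes span less than the granzymes.

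Gzma and Gzmk, the tryptase-like granzymes, were rare. Gzma had 32 UMIs in 7-week liver (4.37 CPM [2.99 to 6.17]), 211 in neonatal liver (6.79 CPM [5.90 to 7.77]), 19 in 7-week spleen (0.943 CPM [0.568 to 1.47]) and 20 in neonatal spleen (0.609 CPM [0.372 to 0.940]). Both liver levels lay above both spleen levels. The intervals of the spleen libraries overlapped, and so, narrowly, did those of the liver libraries. The Gzma UMIs came from 19 cells of 7-week liver, 58 of neonatal liver, 17 of 7-week spleen and 15 of neonatal spleen. In neonatal liver 10 cells held 73% of them and 1 cell held 41, so that level rests on few cells. Of the 211 UMIs there, 101 were in 13 Foxp3-positive cells that also carried RNA of innate-like lymphocytes. These cells had a median of 10982 UMIs, and 2 of the 13 were among the 365 cells of the library with the highest doublet scores (Scrublet). Such a score does not settle whether a cell is a doublet.

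Gzmk had its highest level in 7-week liver. It was counted 35 times there (4.78 CPM [3.33 to 6.65]), 62 times in neonatal liver (1.99 CPM [1.53 to 2.56]), 32 times in 7-week spleen (1.59 CPM [1.09 to 2.24]) and 15 times in neonatal spleen (0.457 CPM [0.256 to 0.753]). The level of 7-week liver lay above the other 3, those of neonatal liver and 7-week spleen overlapped, and neonatal spleen was lowest. Its order over the libraries thus differed from that of Gzmb, though on 8 to 44 cells per library. Neither Gzma nor Gzmk reached 10 CPM in any library, the level a gene had to reach in at least 1 of 2 libraries to be counted in a comparison. Of the other granzyme genes none reached 10 CPM. Gzmc had 2.87 CPM in 7-week liver, 6.08 in neonatal liver, 1.79 in 7-week spleen and 4.66 in neonatal spleen. Gzmd, Gzme, Gzmg and Gzmn had 0 UMIs in every library. A count of 0 was read against a fixed floor of 3 UMIs, not an exact interval. That floor is 0.41 CPM in 7-week liver and 0.0965 CPM in neonatal liver.

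Prf1, which codes for perforin, was low, with neonatal liver apart. It had 21 UMIs in 7-week liver (2.87 CPM [1.77 to 4.38]), 372 in neonatal liver (12 CPM [10.8 to 13.2]), 50 in 7-week spleen (2.48 CPM [1.84 to 3.27]) and 99 in neonatal spleen (3.01 CPM [2.45 to 3.67]). The intervals of the 3 lower libraries overlapped. A Prf1 UMI was seen in 4.34% of neonatal liver cells, against 0.825% in 7-week liver, 0.797% in 7-week spleen and 1.47% in neonatal spleen. One neonatal liver cell held 29 Prf1 UMIs, while no cell of the other libraries held more than 2.

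Nkg7, whose product sits in the granule membrane and takes part in granule release, was also highest in neonatal liver. It stood at 77.3 CPM [71 to 83.9] in 7-week liver, 484 CPM [477 to 492] in neonatal liver, 56 CPM [52.8 to 59.3] in 7-week spleen and 119 CPM [115 to 123] in neonatal spleen. No intervals overlapped, and the order of the 4 was that of Gzmb. A Nkg7 UMI was seen in 8.04% of 7-week liver cells, 39.8% of neonatal liver cells, 6.82% of 7-week spleen cells and 16.5% of neonatal spleen cells. After thinning to 1000 UMIs the shares were 4.27% in 7-week liver, 23.8% in neonatal liver, 3.05% in 7-week spleen and 6.7% in neonatal spleen, in the same order.

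Ctsw, the gene of cathepsin W, a papain-family protease of T and NK cells, varied little. It had 67.3 CPM [61.5 to 73.5] in 7-week liver, 55.5 CPM [52.9 to 58.2] in neonatal liver, 41 CPM [38.2 to 43.9] in 7-week spleen and 58.4 CPM [55.8 to 61.1] in neonatal spleen. The level of 7-week liver was highest and that of 7-week spleen lowest, and the neonatal libraries did not differ beyond their intervals.

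Cst7, which codes for cystatin F, an inhibitor of the lysosomal cathepsins that activate granzymes, was lowest in 7-week liver. It stood at 54.3 CPM [49.1 to 59.9] in 7-week liver, 149 CPM [145 to 154] in neonatal liver, 154 CPM [149 to 160] in 7-week spleen and 168 CPM [164 to 172] in neonatal spleen. Neonatal liver and 7-week spleen overlapped, and neonatal spleen lay just above them. The share of thinned cells with a Cst7 UMI was 4.71% in 7-week liver, 12.1% in neonatal liver, 11.5% in 7-week spleen and 11.8% in neonatal spleen, so that 7-week liver alone stood apart.

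Among the serpins, Serpinb9, the inhibitor of granzyme B, had 9.15 CPM [7.09 to 11.6] in 7-week liver, 11.4 CPM [10.2 to 12.6] in neonatal liver, 14.9 CPM [13.2 to 16.7] in 7-week spleen and 7.88 CPM [6.95 to 8.91] in neonatal spleen. Its highest level was in 7-week spleen, and its order over the libraries was not that of Gzmb. Serpinb6b, a related serpin, had 21.4 CPM [18.2 to 25.1] in 7-week liver, 18.8 CPM [17.3 to 20.4] in neonatal liver, 21.7 CPM [19.7 to 23.9] in 7-week spleen and 16.2 CPM [14.9 to 17.7] in neonatal spleen. Its intervals overlapped among 3 libraries, and neonatal spleen reached up only to the interval of neonatal liver. Serpin genes of this cluster are similar in sequence, and reads shared between them may have been lost or split in counting.

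Between the organs at 7 weeks, liver over spleen, 1 member was higher and 1 lower by 2-fold or more among the 6 that reached 10 CPM. Over all 7640 genes that did, 1.48% were higher and 0.707% lower by this measure. Gzmb was 3.17-fold higher [2.79 to 3.61] in 7-week liver than in 7-week spleen, and Cst7 had a ratio of 0.353 [0.317 to 0.392], that is 2.84-fold lower. Ctsw had a ratio of 1.64 [1.47 to 1.84], Nkg7 of 1.38 [1.25 to 1.53], Serpinb6b of 0.986 [0.817 to 1.19] and Serpinb9 of 0.614 [0.464 to 0.803]. The median log2 ratio of the 6 was 0.223, against -0.0054 over all genes. Gzma had a ratio of 4.63 [2.55 to 8.65], Gzmk of 3.01 [1.81 to 5.02] and Prf1 of 1.16 [0.659 to 1.96], below the 10 CPM minimum.

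Between the organs at 12 days, liver over spleen, 3 members were higher by 2-fold or more and 0 lower among 7. Over all 7560 genes tested, 3.17% were higher and 1.08% lower. Gzmb was 4.73-fold higher [4.59 to 4.88] in neonatal liver than in neonatal spleen, Nkg7 4.08-fold higher [3.94 to 4.23] and Prf1 3.97-fold higher [3.17 to 5.01]. The other 4 lay within 2-fold: Serpinb9 had a ratio of 1.44 [1.23 to 1.7], Serpinb6b of 1.16 [1.03 to 1.3], Ctsw of 0.95 [0.889 to 1.01] and Cst7 of 0.889 [0.855 to 0.925]. The median log2 ratio of the 7 was 0.53, against -0.0028 over all genes. Below the minimum, Gzma had a ratio of 11.1 [7.04 to 18.6] and Gzmk of 4.37 [2.45 to 8.27]. The protease and pore genes and Nkg7 thus pointed to liver, while the cystatin, the cathepsin and the serpin genes differed little between these organs.

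Between the ages in liver, 7 weeks over 12 days, 0 members were higher and 4 lower by 2-fold or more among 7. Over all 7817 genes tested, 5.33% were higher and 5.76% lower. Gzmb had a ratio of 0.0928 [0.0848 to 0.101], or 10.8-fold lower in 7-week liver than in neonatal liver. Nkg7 was 6.27-fold lower (ratio 0.16 [0.146 to 0.174]) and Cst7 2.75-fold lower (0.364 [0.328 to 0.403]). Prf1 was 4.17-fold lower (0.24 [0.147 to 0.372]), with a ratio of 0.152 when the 10 cells richest in it were left out of each library. Ctsw, at 1.21 [1.1 to 1.34], was slightly higher in 7-week liver, and for Serpinb6b at 1.14 [0.951 to 1.36] and Serpinb9 at 0.803 [0.609 to 1.05] the interval included 1. The median log2 ratio of the 7 was -1.46, against -0.02 over all genes. Gzmk, below the minimum, had a ratio of 2.4 [1.54 to 3.68], opposite in direction to Gzmb, and Gzma one of 0.644 [0.429 to 0.937].

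Between the ages in spleen, 7 weeks over 12 days, 0 members were higher and 2 lower by at least 2-fold among 6. Over all 7734 genes tested, 3.09% were higher and 3.18% lower. Gzmb was 7.22-fold lower in 7-week spleen than in neonatal spleen (ratio 0.138 [0.125 to 0.153]) and Nkg7 2.12-fold lower (0.471 [0.441 to 0.504]). Cst7 had a ratio of 0.917 [0.878 to 0.959], Ctsw of 0.702 [0.646 to 0.762], Serpinb6b of 1.34 [1.18 to 1.52] and Serpinb9 of 1.89 [1.59 to 2.24]. The median log2 ratio of the 6 was -0.318, against -0.02 over all genes. Gzmk had a ratio of 3.48 [1.83 to 6.91] and Prf1 of 0.823 [0.574 to 1.17], below the minimum. The comparisons of organs and of ages share their libraries, so the 4 sets of ratios are not independent of each other.

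**Figure D2:**
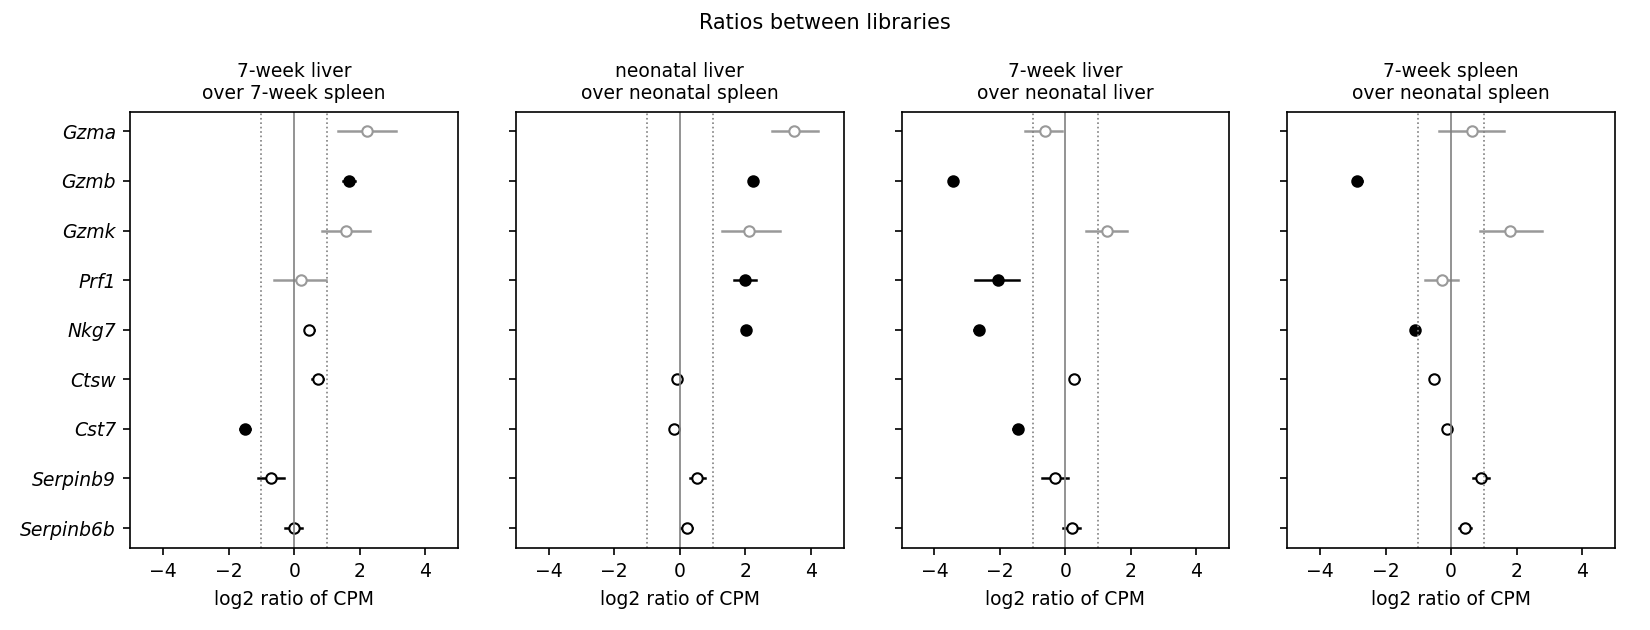
Log2 ratio of each member in the 4 comparisons (7-week liver over 7-week spleen, neonatal liver over neonatal spleen, 7-week over neonatal liver, 7-week over neonatal spleen), with exact 95% intervals; filled points passed 2-fold and 10 CPM, open points stayed within 2-fold, grey points did not reach 10 CPM, and dotted lines mark 2-fold. Gzmb is past the dotted lines in all 4, with ratios of 3.17, 4.73, 0.0928 and 0.138.

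The same ratios were taken in Foxp3-positive cells alone. There Gzmb was 3.36-fold higher in 7-week liver than in 7-week spleen, Cst7 had a ratio of 0.32, and 1.9% of all genes were higher and 0.954% lower. Nkg7 changed direction in this comparison: it had 48.3 CPM in Foxp3-positive cells of 7-week liver against 60.5 CPM in those of 7-week spleen (ratio 0.797 [0.688 to 0.922]). In Foxp3-negative cells it had 137 CPM in 7-week liver against 45.9 CPM in 7-week spleen, a ratio of 2.98 [2.54 to 3.51], with 1.46% of all genes higher and 1.13% lower. The higher Nkg7 level of 7-week liver over 7-week spleen was therefore found among Foxp3-negative cells and not among Foxp3-positive ones.

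In the other 3 comparisons both classes gave the same direction for Gzmb and Nkg7, and past 2-fold in all but 1 case, Nkg7 with age in Foxp3-negative spleen cells. In neonatal liver over neonatal spleen, the ratio in Foxp3-positive cells was 4.53 for Gzmb, 3.83 for Nkg7 and 3.63 for Prf1, with 2.98% of all genes higher and 1.3% lower. In Foxp3-negative cells it was 4.99 for Gzmb, 5.28 for Nkg7 and 5.78 for Prf1, with 3.75% higher and 0.859% lower. In 7-week over neonatal liver, the ratio in Foxp3-positive cells was 0.0988 for Gzmb, 0.0994 for Nkg7, 0.233 for Prf1 and 0.333 for Cst7 (6.22% of all genes higher, 5.94% lower). Nkg7 was thus 10.1-fold lower in 7-week liver within this class. In Foxp3-negative cells the ratio was 0.117 for Gzmb, 0.286 for Nkg7, 0.218 for Prf1 and 0.45 for Cst7 (4.39% higher, 5.73% lower). In 7-week over neonatal spleen the ratio in Foxp3-positive cells was 0.133 for Gzmb and 0.478 for Nkg7 (3.28% higher, 3.36% lower), and in Foxp3-negative cells 0.219 for Gzmb and 0.507 for Nkg7 (3.55% higher, 2.67% lower), the last just inside 2-fold.

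Within a library, Foxp3-positive cells were set against Foxp3-negative cells. Gzmb was higher in Foxp3-positive cells of every library: 80.1 against 46 CPM in 7-week liver, 810 against 391 CPM in neonatal liver, 23.8 against 17.2 CPM in 7-week spleen and 179 against 78.4 CPM in neonatal spleen. The ratio was 1.74 [1.41 to 2.17] in 7-week liver, 2.07 [1.98 to 2.17] in neonatal liver, 1.39 [1.11 to 1.74] in 7-week spleen and 2.28 [2.09 to 2.5] in neonatal spleen. Since Foxp3-positive cells were deeper, the shares of thinned cells with a Gzmb UMI were compared too. They were 4.82% against 2.91% in 7-week liver and 29.4% against 16.1% in neonatal liver, Foxp3-positive cells first in each pair. In 7-week spleen they were 1.35% against 0.513%, and in neonatal spleen 6.95% against 4.09%. The direction was thus the same with Gzmb counted at equal depth. The classes were still set by Foxp3 UMIs before thinning, so depth was only partly evened out. In neonatal liver 3995 of 4157 Foxp3-positive and 1158 of 1511 Foxp3-negative cells were deep enough to be thinned. By the 2-fold measure, 1 member was higher in Foxp3-positive cells of neonatal liver (0.211% of all genes higher, 1.15% lower) and 1 in those of neonatal spleen (0.538% higher, 0.229% lower), Gzmb in both. The call in neonatal liver was lost with all deposited barcodes (ratio 1.81) and with the mean of CPM over cells (1.67). Without the 10 cells richest in Gzmb the ratio was 2.76 in 7-week liver, 2.42 in neonatal liver, 3.8 in 7-week spleen and 3.72 in neonatal spleen.

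Nkg7 ran against Gzmb in 7-week liver. It had 48.3 CPM in Foxp3-positive cells against 137 CPM in Foxp3-negative cells there (ratio 0.352 [0.297 to 0.417]), the 1 member past 2-fold in that library (0.551% of all genes higher, 0.354% lower). In neonatal liver the values were 485 and 479 CPM (ratio 1.01), in 7-week spleen 60.5 and 45.9 CPM (ratio 1.32 [1.15 to 1.51]) and in neonatal spleen 127 and 90.7 CPM (ratio 1.4 [1.28 to 1.52]), Foxp3-positive cells first. In 7-week spleen 0 members passed 2-fold (0.0661% of all genes higher, 0.106% lower). The summed RNA of marker genes of innate-like lymphocytes was higher in the Foxp3-negative cells of all 4 libraries. Whether such cells account for the Nkg7 ratios was not tested. The 9 marker genes of such cells summed to 1.42 CPM in Foxp3-positive against 48.5 CPM in Foxp3-negative cells of 7-week liver, 16.6 against 114 CPM in neonatal liver, 9.81 against 23.7 CPM in 7-week spleen and 16.4 against 56.7 CPM in neonatal spleen. Of the sums in Foxp3-negative cells, Tyrobp and Fcer1g made up 59.2 and 17.9 CPM in neonatal liver. They made up 7.79 and 5.88 CPM in 7-week spleen, and 23.2 and 14.8 CPM in neonatal spleen. Not every marker was higher in Foxp3-negative cells of neonatal liver. Klrb1c (0 against 0.0767 CPM), Ncr1 (0 against 0.0383) and Klre1 (0.199 against 0.307) were lower there than in Foxp3-positive cells. In 7-week liver Klrd1, Klrk1, Ncr1, Klre1 and Fcer1g were at 0 in Foxp3-positive cells. Ncr1 and Klre1 were at 0 in both classes of both 7-week libraries, so they do not separate the classes. In Foxp3-negative cells of 7-week liver Xcl1 made up 35.5 CPM of the sum, Klrk1 5.01, Klrd1 4.18, Klrb1c 1.25, Fcer1g 1.25 and Eomes 0.836 CPM. Each of these was lower in Foxp3-positive cells, and Tyrobp alone was higher in them, 0.608 against 0.418 CPM. When the 7 cells with UMIs of 2 or more such genes (Eomes not counted) were left out, the Nkg7 ratio was 0.384. All of them were Foxp3-negative, and they held 32 of the 566 Nkg7 UMIs of the library. Another 32 cells with 1 such gene stayed in.

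Ctsw was lower in Foxp3-positive cells in 3 libraries: 55.6 against 91.5 CPM in 7-week liver (ratio 0.607), 50.3 against 82.3 CPM in neonatal liver (0.611) and 37.7 against 48.2 CPM in 7-week spleen (0.783). In neonatal spleen it had 57.3 CPM in Foxp3-positive and 62.4 CPM in Foxp3-negative cells, and the interval of the ratio, 0.825 to 1.02, included 1. Cst7 differed little between the classes, with ratios of 0.811, 1.09, 1.08 and 1 in 7-week liver, neonatal liver, 7-week spleen and neonatal spleen. Gzma had 29 UMIs in Foxp3-positive against 3 in Foxp3-negative cells of 7-week liver, 198 against 13 in neonatal liver, 15 against 4 in 7-week spleen and 19 against 1 in neonatal spleen. Foxp3-positive cells held 67.3%, 83.9%, 68.8% and 78.2% of all UMIs of these libraries, in the same order. The ratio of Gzma CPM was 4.69 [1.45 to 24.1] in 7-week liver and 2.93 [1.67 to 5.6] in neonatal liver, and in both spleen libraries its interval included 1. In neonatal liver 101 of the 198 UMIs were in the 13 cells with innate-like RNA, and when cells with innate-like, B or macrophage RNA were left out the ratio was 1.41 [0.788 to 2.75], an interval that included 1. Gzmk was lower in Foxp3-positive cells of both 7-week libraries, with a ratio of 0.364 [0.173 to 0.748] in liver on 15 against 20 UMIs and of 0.311 [0.141 to 0.663] in spleen on 13 against 19 UMIs. In neonatal liver its ratio was 1.13.

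Prf1 had 11.3 CPM in Foxp3-positive and 15.4 CPM in Foxp3-negative cells of neonatal liver, a ratio of 0.737 [0.572 to 0.96]. That ratio rested on few cells: 10 Foxp3-negative cells held 58.4% of the 77 Prf1 UMIs of their class, and 1 of them held 29. It turned to 1.36 without the 10 richest cells of each class, to 1.46 without cycling cells and to 2.19 when Foxp3-negative cells with an Il2ra or Ikzf2 UMI were left out. Serpinb9 had ratios of 1.06, 1.39 [1.01 to 1.96], 0.995 and 1.03 in 7-week liver, neonatal liver, 7-week spleen and neonatal spleen, and Serpinb6b of 0.828, 1.03, 1.14 and 0.692 [0.572 to 0.841] in the same order. Neither serpin gene passed 2-fold between the classes in any library.

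**Figure D3:**
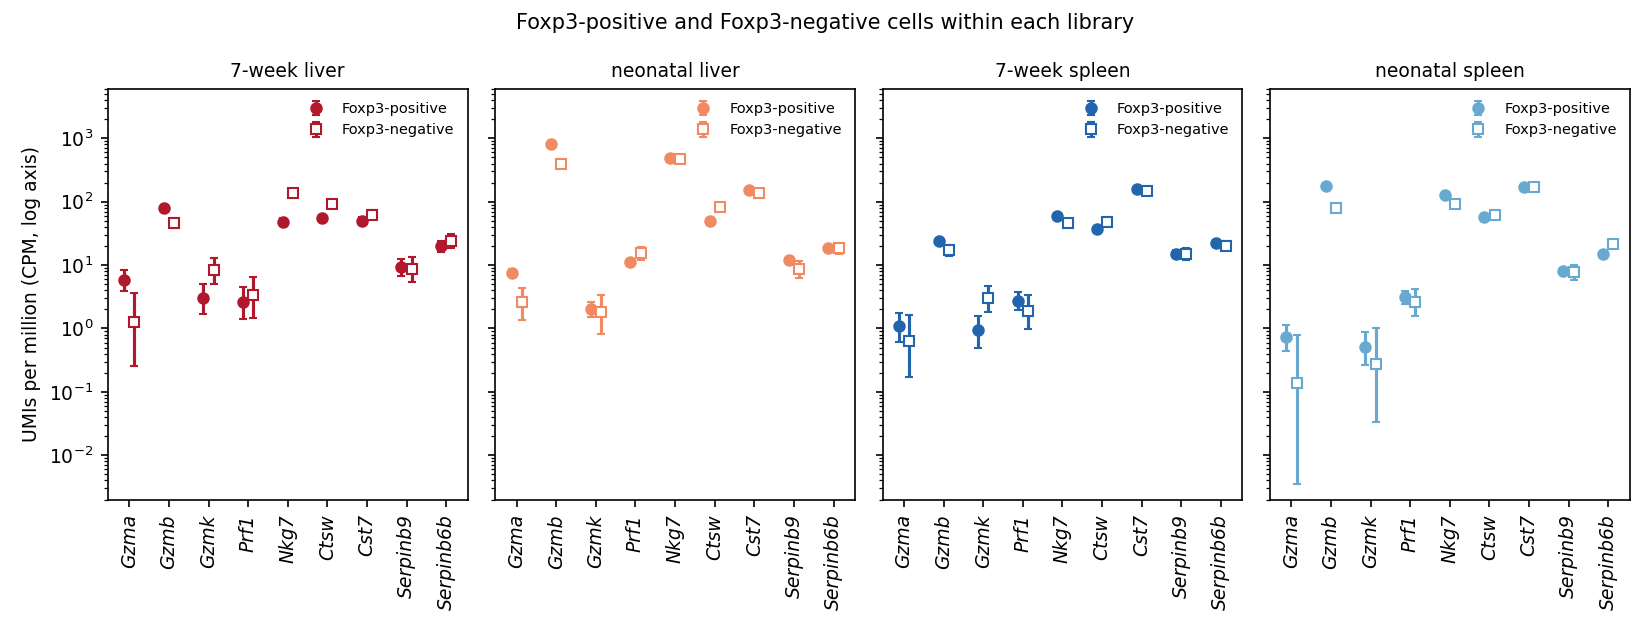
Level of the members in Foxp3-positive cells (filled circles) and Foxp3-negative cells (open squares) of each library, in CPM with exact 95% Poisson intervals. Gzmb is higher in Foxp3-positive cells of every library, while Nkg7 in 7-week liver stands at 48.3 CPM in Foxp3-positive and 137 CPM in Foxp3-negative cells.

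Cells without a Foxp3, Il2ra or Ikzf2 UMI, which have less evidence of Treg identity, were set against all other cells of their library. Shallow cells are more likely to lack such UMIs, so the group is not set by identity alone. In 7-week liver they had 178 CPM of Nkg7 against 62.9 CPM in the others. In the other libraries they had less Nkg7: 350 against 490 CPM in neonatal liver, 19.9 against 59.2 CPM in 7-week spleen and 54.8 against 122 CPM in neonatal spleen. Gzmb was lower in these cells in 3 libraries, at 180 against 768 CPM in neonatal liver, 9.64 against 22.8 CPM in 7-week spleen and 43.3 against 162 CPM in neonatal spleen. In 7-week liver it had 55.8 against 70.8 CPM, a ratio of 0.788 [0.578 to 1.05] whose interval included 1. Ctsw was higher in them in every library, from 129 against 58.5 CPM in 7-week liver to 72.1 against 57.8 CPM in neonatal spleen. Of the 35 Gzmk UMIs of 7-week liver, 17 were in these cells, which is 18.6 CPM against 2.81 CPM elsewhere.

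Cycling cells, with UMIs of 3 or more of 11 mitosis and replication genes, numbered 110 in 7-week liver, 1043 in neonatal liver, 169 in 7-week spleen and 661 in neonatal spleen. Gzmb was higher in cycling cells than in the others in 3 libraries: 152 against 58.9 CPM in 7-week liver, 68.6 against 18.4 CPM in 7-week spleen and 200 against 145 CPM in neonatal spleen. In neonatal liver it was lower, 587 against 826 CPM. Nkg7 followed, with 131 against 70.7 CPM in 7-week liver, 92.9 against 53.3 CPM in 7-week spleen and 146 against 111 CPM in neonatal spleen, and 416 against 521 CPM in neonatal liver. Ctsw was lower in cycling cells of every library, at 25.3 against 72.4 CPM in 7-week liver, 32.4 against 67.8 CPM in neonatal liver, 15.5 against 42.8 CPM in 7-week spleen and 33.3 against 65.3 CPM in neonatal spleen. Without cycling cells the Gzmb ratio of 7-week over neonatal liver was 0.0714 and that of neonatal liver over neonatal spleen 5.69, each farther from 1 than with them.

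How the RNA was spread over cells differed between the members. Among cells thinned to 1000 UMIs, 5 or more Gzmb UMIs were found in 0% of 7-week liver cells, 4.89% of neonatal liver cells, 0.101% of 7-week spleen cells and 0.786% of neonatal spleen cells. In neonatal liver 41 thinned cells (0.796%) had 10 or more. Nkg7 reached 5 UMIs in 0.0441% of thinned cells of 7-week liver, 1.53% of neonatal liver, 0.0843% of 7-week spleen and 0.0513% of neonatal spleen. Cst7 was flat: 2 or more UMIs were found in 0.352% of 7-week liver cells, 1.88% of neonatal liver cells, 2.12% of 7-week spleen cells and 2.26% of neonatal spleen cells, and few cells of any library held more than 1. Unthinned, the most Gzmb UMIs in 1 cell were 15 in 7-week liver, 194 in neonatal liver, 28 in 7-week spleen and 144 in neonatal spleen. The 10 cells with most held 21.8% of all Gzmb UMIs of 7-week liver, 5.33% of neonatal liver, 38.6% of 7-week spleen and 15.1% of neonatal spleen, so that the 7-week spleen level rested most on few cells.

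**Figure D4:**
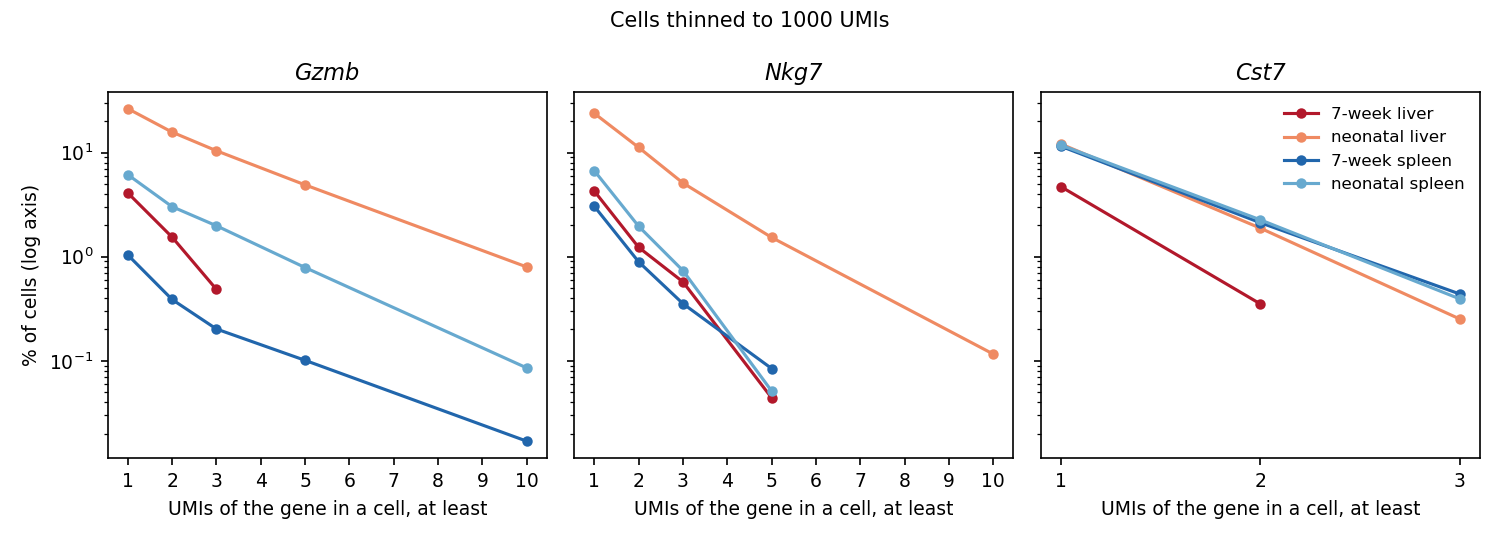
Share of cells thinned to 1000 UMIs that had at least 1, 2, 3, 5 or 10 UMIs of Gzmb, Nkg7 or Cst7, on a log axis, 1 line per library. Neonatal liver lies above the other libraries for Gzmb and Nkg7, with 4.89% of cells at 5 or more Gzmb UMIs; for Cst7, 7-week liver lies below the others at 2 or more UMIs (0.352%).

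At least 1 of the 9 RNAs was seen in 19.8% of thinned cells of 7-week liver, 47.9% of neonatal liver, 21.4% of 7-week spleen and 27.4% of neonatal spleen. At least 2 were seen in 2.69% of 7-week liver (61 cells), 19.3% of neonatal liver (992 cells), 2.43% of 7-week spleen (144 cells) and 5.21% of neonatal spleen (305 cells). Cells with 5 or more members were 2, both in neonatal liver. In neonatal liver 20.5% of Foxp3-positive and 14.9% of Foxp3-negative thinned cells had at least 2 members; in 7-week liver the shares were 2.05% of Foxp3-positive and 3.73% of Foxp3-negative cells, the opposite order.

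Cells with a Gzmb UMI had a Nkg7 UMI more often than cells without one. The shares among thinned cells were 14% [7.66 to 22.7] with and 3.86% without Gzmb in 7-week liver, 45.7% [43.1 to 48.4] and 16% [14.8 to 17.2] in neonatal liver, 14.5% [6.86 to 25.8] and 2.93% in 7-week spleen, and 29% [24.3 to 34] and 5.24% in neonatal spleen. Numbers of cells with a Gzmb UMI were 93, 1360, 62 and 359 in the same order. In 7-week liver, 4 of 68 Foxp3-positive cells with Gzmb also had Nkg7 (5.88%), against 9 of 25 Foxp3-negative cells with Gzmb (36%). Over all thinned cells of each class there, Nkg7 was seen in 3.05% [2.21 to 4.08] of Foxp3-positive and 6.29% [4.76 to 8.13] of Foxp3-negative cells. The overlap in 7-week liver thus came mainly from Foxp3-negative cells, and in Foxp3-positive cells it rests on 4 cells. Prf1 was seen with Gzmb in 2.65% [1.86 to 3.65] of neonatal liver cells, against 0.606% [0.385 to 0.908] of those without Gzmb. In 7-week liver Prf1 was too rare for such a comparison.

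Cst7 was seen more often with Gzmb than without it in neonatal liver, 18.2% against 9.91%, and in neonatal spleen, 17% against 11.4%. In 7-week liver the shares were 8.6% with and 4.55% without Gzmb, and in 7-week spleen 12.9% and 11.5%. The shares of cells with Ctsw lay closer together: 9.68% with and 6.89% without Gzmb in 7-week liver, 5.88% and 5.77% in neonatal liver, 4.84% and 4.29% in 7-week spleen, and 5.29% and 6.22% in neonatal spleen. Serpinb9 was seen in 1.25% [0.73 to 1.99] of neonatal liver cells with Gzmb and in 0.975% [0.688 to 1.34] of those without, and Serpinb6b in 2.13% and 1.61%. In the other libraries 0 of 93 (7-week liver), 2 of 62 (7-week spleen) and 2 of 359 (neonatal spleen) cells with Gzmb had a Serpinb9 UMI, so a difference for this serpin was not detectable at this depth. Ctsw went instead with Nkg7 in 7-week liver, in 17.5% of cells with and 6.53% of cells without a Nkg7 UMI, with 4.65% and 6.21% among Foxp3-positive cells and 27.8% and 7.09% among Foxp3-negative cells.

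**Figure D5:**
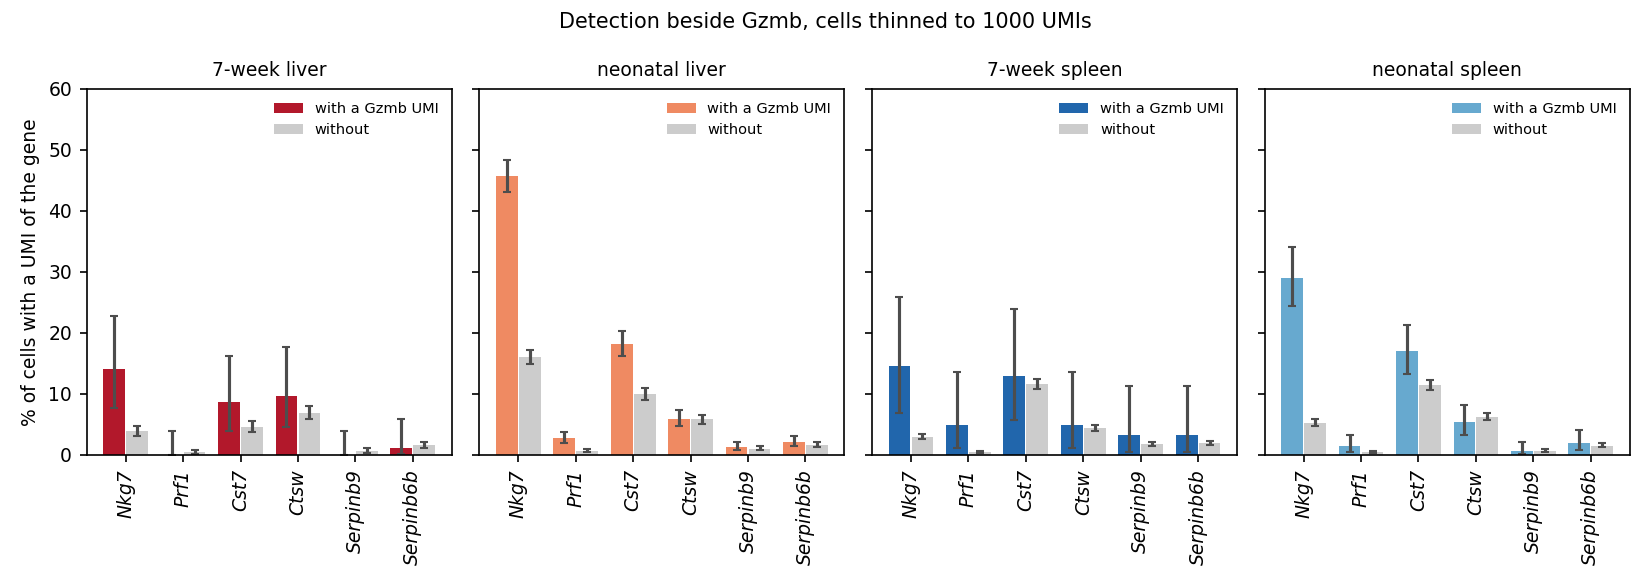
Share of cells thinned to 1000 UMIs that had a UMI of Nkg7, Prf1, Cst7, Ctsw, Serpinb9 or Serpinb6b, among cells with and without a Gzmb UMI, in each library, with Clopper-Pearson 95% intervals. Nkg7 stands apart in all 4 libraries, from 14% with and 3.86% without Gzmb in 7-week liver to 45.7% with and 16% without in neonatal liver, while the shares for Ctsw lie close together.

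The genes whose level over cells was most like that of a member were ranked by the mean Pearson correlation of log values within the 4 libraries, over genes in enough cells; these correlations share depth and library and are given as a description. For Gzmb they were Klrg1, an inhibitory receptor of differentiated lymphocytes (mean r 0.33), S100a4 (0.31) and S100a6 (0.30), both calcium-binding proteins. For Nkg7 they were Ccl5, a chemokine (0.39), and the chemokine receptors Cxcr6 (0.34, in 3 libraries) and Cxcr3 (0.30). For Cst7 they were Tigit (0.28) and Lag3 (0.27), inhibitory receptors, and Tnfrsf9 (0.25), a costimulatory receptor. Ctsw had only weak likeness to any gene, at most 0.12, and for the serpins the highest mean r was 0.06, too weak to name a pattern. Among the members themselves, Gzmb and Nkg7 had a mean r of 0.27, Nkg7 and Cst7 one of 0.20, and Gzmb and Cst7 one of 0.09. Gzma, Gzmk and Prf1 were in too few cells to be ranked.

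The genes like Gzmb and Nkg7 were also highest in neonatal liver. Klrg1 had 119 CPM in 7-week liver, 518 in neonatal liver, 61.3 in 7-week spleen and 202 in neonatal spleen. Ccl5 had 343 CPM in 7-week liver, 1490 in neonatal liver, 105 in 7-week spleen and 236 in neonatal spleen. A Ccl5 UMI was seen in 60.9% of thinned neonatal liver cells with Gzmb and in 23% of those without. Of the 3 genes most like Cst7, Lag3 and Tnfrsf9 were lowest in 7-week liver, as Cst7 was, and Tigit was not. Tigit had 226 CPM in 7-week liver, 487 in neonatal liver, 186 in 7-week spleen and 186 in neonatal spleen. Lag3 had 36 CPM in 7-week liver, 109 in neonatal liver, 96.6 in 7-week spleen and 54.9 in neonatal spleen. Tnfrsf9 had 69.2 CPM in 7-week liver, 239 in neonatal liver, 212 in 7-week spleen and 267 in neonatal spleen.

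Other genes of the granule pathway were taken from lists by role. Over all genes tested, 1.48% to 5.33% were higher and 0.707% to 5.76% lower by the 2-fold measure in the 4 comparisons. Few calls in a short list are therefore near that share. Among 11 genes of granule cargo and sorting, those that reached 10 CPM numbered 8 or 9 in each comparison. Ctsh, a lysosomal cathepsin, was 3.97-fold higher [3.28 to 4.83] in neonatal liver than in neonatal spleen (16.4 against 4.14 CPM). It had a ratio of 0.133 [0.0754 to 0.218] in 7-week over neonatal liver (2.18 against 16.4 CPM). Both were on the side of Gzmb. Unlike Gzmb, Ctsh had similar levels in 7-week liver and 7-week spleen (2.18 and 1.94 CPM, below the minimum). It was also lower in Foxp3-positive than in Foxp3-negative cells of neonatal liver, 15.4 against 21.7 CPM. Lamp1, a lysosomal membrane protein gene, went the other way with age: 119 CPM in 7-week liver against 50.4 CPM in neonatal liver (ratio 2.37 [2.18 to 2.57]), with spleen levels of 156 CPM at 7 weeks against 71.4 CPM at 12 days (ratio 2.19 [2.07 to 2.31]). Igf2r, the receptor that carries granzymes and other enzymes to lysosomes, was lower in neonatal liver than in neonatal spleen, 43.1 against 109 CPM (ratio 0.397 [0.372 to 0.422]). No other gene of this list that reached 10 CPM passed 2-fold in any of the 4 comparisons. Srgn, the proteoglycan core that holds granzymes in the granule, was at 1418 CPM in 7-week liver, 1924 in neonatal liver, 1205 in 7-week spleen and 1326 in neonatal spleen, within 2-fold throughout.

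Of 12 genes of granule release, 1 passed 2-fold at the 10 CPM minimum, in 1 comparison, where 3.17% of all genes were higher and 1.08% lower. Sytl3, a synaptotagmin-like protein gene, had 17 CPM in the neonatal liver library and 4.32 CPM in that of neonatal spleen (ratio 3.93 [3.26 to 4.76]). Rab27a, the GTPase that docks granules, had 46.4 CPM in 7-week liver, 29.2 in neonatal liver, 29.8 in 7-week spleen and 29.3 in neonatal spleen, within 2-fold in every comparison. Below that minimum, Sytl3 had 8.74 CPM in 7-week liver against 1.98 CPM in 7-week spleen. So few calls are near the share over all genes and are not a result about the release genes.

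Of 7 other serpin and cystatin genes, 4 reached 10 CPM, and Serpina3g, an intracellular serpin of lymphocytes, was higher in liver and at 7 weeks. It had 106 CPM in 7-week liver, 38.7 in neonatal liver, 48.5 in 7-week spleen and 12.5 in neonatal spleen. Its ratio was 2.19 [1.99 to 2.41] in 7-week liver over 7-week spleen, 3.08 [2.76 to 3.46] in neonatal liver over neonatal spleen, 2.74 [2.5 to 3] in 7-week over neonatal liver and 3.87 [3.44 to 4.35] in 7-week over neonatal spleen. Its direction with age was opposite to that of Gzmb in both organs. Serpinb6a had 44.5 CPM in 7-week liver against 93.1 CPM in neonatal liver (ratio 0.478 [0.425 to 0.536]), and was within 2-fold in the other 3 comparisons.

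Of 5 ligand and cytokine genes, Ifng, the gene of interferon gamma, had 17.1 CPM in 7-week liver, 19.4 in neonatal liver, 5.21 in 7-week spleen and 3.56 in neonatal spleen. It was 3.28-fold higher [2.51 to 4.29] in 7-week liver than in 7-week spleen and 5.44-fold higher [4.45 to 6.68] in neonatal liver than in neonatal spleen. In 7-week liver it was lower in Foxp3-positive cells, 8.72 against 34.3 CPM in Foxp3-negative ones (ratio 0.254 [0.172 to 0.372]), the same side as Nkg7. Lta and Tnf, cytokine genes of the tumour necrosis factor family, were lower in neonatal liver than in neonatal spleen. Lta had 11.5 CPM in liver and 54.2 CPM in spleen at that age (ratio 0.213 [0.189 to 0.238]), and Tnf 15.6 CPM in liver and 37.9 CPM in spleen (0.411 [0.369 to 0.457]). Lta was also higher in 7-week than in neonatal liver, with a ratio of 2.55 [2.14 to 3.03].

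Of 12 transcription regulators, 9 reached 10 CPM. Tbx21 (T-bet), Prdm1 (Blimp-1) and Id2, which are known to promote effector differentiation, were higher in liver at both ages. In 7-week liver over 7-week spleen the ratio was 2.48 [1.93 to 3.17] for Tbx21, 2.33 [1.92 to 2.84] for Prdm1 and 2.53 [2.29 to 2.79] for Id2. In neonatal liver over neonatal spleen it was 3.5 [3.1 to 3.97] for Tbx21, 2.94 [2.55 to 3.4] for Prdm1 and 3.46 [3.27 to 3.66] for Id2. Id3, which goes with less differentiated T cells, was lower in liver at both ages, with ratios of 0.353 [0.326 to 0.381] at 7 weeks and 0.245 [0.235 to 0.255] at 12 days. Bach2, a repressor of effector genes, had 23.5 CPM in 7-week liver, 8.2 in neonatal liver, 25.6 in 7-week spleen and 21.8 in neonatal spleen; it was lower by at least 2-fold in neonatal liver than in neonatal spleen and higher by at least 2-fold in 7-week than in neonatal liver. With age in liver, Tbx21 had 17.2 CPM at 7 weeks against 35.7 CPM at 12 days (ratio 0.482 [0.398 to 0.58]), on the side of Gzmb. In 7-week over neonatal spleen 0 of the 9 regulators passed 2-fold in either direction. Over all genes 3.09% were higher and 3.18% lower there, so a count of 0 is near that share.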

How the data were processed

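Gene by cell matrices of UMI counts, 1 per library, were deposited by the authors; they were written by Cell Ranger 4.0.0 per the file headers. The submitters' processing notes name Cell Ranger, Seurat 4.0.2 and the mm10 genome; the release of the gene annotation was not stated. All genes were kept, and 0 columns of other samples were present. Cells entered with 500 or more genes and no more than 10% mitochondrial UMIs, 2424 to 6178 per library, with totals between 7324692 and 32848460 UMIs. A cell with at least 1 Foxp3 UMI was Foxp3-positive.

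Counts were summed over cells and divided by the sum over all genes (CPM). With 1 library per group there was no test; a gene counted as higher or lower when its ratio passed 2-fold and its level reached 10 CPM in at least 1 side. Shares of cells were compared after cells were thinned to 1000 UMIs, and cells with fewer UMIs were left out of these shares. Scrublet (scanpy 1.11.5) marked 0% to 0.0825% of cells at its own threshold. Whether that threshold failed or few doublets were present cannot be told, as removal of doublets before deposit is not stated. No doublets were removed here, and the highest scores were left out as an alternative. Python 3.11.15, numpy 2.4.6, scipy 1.17.1 and pandas 2.3.3 were used, with TMM factors from edgeR 4.0.16 (R 4.3.3) as an alternative scaling only. Counting and ratios were tested on simulated data. Positions come from GENCODE vM21 (GRCm38), to which 32158 features (99.6%) were matched by identifier. All members are named. Of each list, up to 4 genes with the largest absolute log2 ratio among those at 10 CPM are named, and for each member the 3 genes with the highest mean correlation over cells; Gzmc, Srgn and Bach2 were added after their values were seen. The members, lists and rules were chosen with earlier results of these data known.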

Additional observations from a re-analysis of the deposited data

Results flagged for a closer look

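Values that pointed in opposite directions in a pair of groups under the same contrast are given here; with 1 library per group none of these differences was tested, and no cause was tested. The ratio of Serpinb9 in liver over spleen was 0.614 at 7 weeks and 1.44 at 12 days. The ratio of Ctsw at 7 weeks over 12 days was 1.21 in liver and 0.702 in spleen. The ratio of Nkg7 in Foxp3-positive over Foxp3-negative cells was 0.352 in 7-week liver and 1.32 in 7-week spleen.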

How the results depend on the processing

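No paired analysis was possible because each group has 1 library, and for the same reason no library could be left out. Of 120 alternative counts of members past 2-fold, 102 stayed within 1.5 times the count reported. With no minimum level, the count was 4 for 7-week liver over 7-week spleen and 5 for neonatal liver over neonatal spleen, each adding Gzma and Gzmk. Foxp3-positive over Foxp3-negative cells were reported with 1 member in 7-week liver, 1 in neonatal liver, 0 in 7-week spleen and 1 in neonatal spleen. With no minimum level these became 3 in 7-week liver, 2 in neonatal liver, 1 in 7-week spleen and 2 in neonatal spleen. Without the 10 cells richest in the gene they became 2 in 7-week liver and 1 in 7-week spleen, where Gzmb then had a ratio of 2.76 in 7-week liver and 3.8 in 7-week spleen. With totals that left out the abundant gene classes they became 2 in 7-week liver and 2 in neonatal liver, and with at least 2 Foxp3 UMIs required, 2 in 7-week liver. Set against Foxp3-negative cells without Il2ra and Ikzf2 UMIs they became 3 in 7-week liver, 3 in neonatal liver, 2 in 7-week spleen and 2 in neonatal spleen; the Gzmb ratio of neonatal liver was then 4.51 and that of Prf1 2.19, against 0.737. In neonatal liver the count was 0 with all deposited barcodes (Gzmb ratio 1.81) and 0 with the mean of CPM over cells (1.67), and 2 after thinning. The cause of these shifts was not tested. The 14 ratios past 2-fold kept their direction in all 182 alternatives and stayed past 2-fold in 180; of 455 alternatives for the 35 other ratios, 30 changed direction. Depth limits Gzma, Gzmk and Prf1 most, with 15 to 50 UMIs in several libraries.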
